A study of Homo sapiens with 12 samples.

Results

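Transcripts of 8 genes of plasminogen activation and blood coagulation were followed in Beas-2b, an immortalised epithelial line from human bronchus, with and without the mitochondrial adenine nucleotide translocase ANT1 and with and without the DNA-damaging drug bleomycin. The genes were taken by symbol from the 58735 genes of the deposited count table: PLAU, PLAT, PLAUR, SERPINE2, SERPINB2, F3, TFPI and TFPI2. All 8 passed the filter on low counts, among 16702 genes tested.

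Plasminogen is a circulating proenzyme that urokinase (PLAU) and tissue-type plasminogen activator (PLAT) cut to plasmin, the protease that dissolves fibrin and helps to break down matrix. The urokinase receptor (PLAUR) holds urokinase at the cell surface, and serpins restrain the activators. Coagulation starts when tissue factor (F3) meets factor VII of plasma, and tissue factor pathway inhibitor (TFPI) blocks that complex. In fibrotic lung, fibrin that is laid down and poorly removed is a known feature, and the alveolar and bronchial epithelium is a source of both activators and inhibitors.

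There were 4 groups of 3 libraries each: ANT1 knockout cells in bleomycin, ANT1 knockout cells in control medium, wild type cells in bleomycin and wild type cells in control medium. Bleomycin was given at 10 mg/ml over 2 days, as the labels state it, to bring on senescence. The knockout was made by CRISPR in SLC25A4, the gene of ANT1, and the labels speak of clones without giving their number, so that genotype and clone cannot be told apart. The design text calls the 3 libraries of a group biological replicates and does not say whether they came from separate cultures, so p-values measure the spread between these libraries, which may be technical.

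SLC25A4 had at most 6.97 CPM (the read count scaled to library size, here with TMM factors) in the knockout libraries and at least 16.1 CPM in the wild type libraries. Library totals lay between 15753944 and 21923695 counts. One library, knockout control replicate 2, differed from the rest, with 0.364% of its counts on the mitochondrial chromosome against 3.86% to 5.13% in the other 11 libraries. Of the 8 genes, 5 had their lowest and the other 3 their highest knockout control value in that library. The same was not counted over all genes tested, so it does not set these genes apart. Some of the results that this library affects are given with and without it, and the others with all 12 libraries. Of 8 epithelial markers, 7 or 8 had any count in each group, and 5 or 6 had a group mean over 1 CPM. Their summed levels lay between 1396 and 1755 CPM, carried by keratins other than KRT5. KRT5 (0 in knockout control) and TP63 had group means of at most 0.338 and 0.601 CPM. EPCAM and CDH1, markers of epithelial adhesion, had group means between 0.937 and 2.45 CPM. Of 4 leukocyte markers, the summed level was 2.86 to 5.69 CPM in knockout bleomycin, 29.7 to 40.8 CPM in knockout control, 2.06 to 3.10 CPM in wild type bleomycin and 19.5 to 23.9 CPM in wild type control. That sum was carried by CD14, while the defining markers PTPRC and CD3E were at or near 0, and its part in the results was not tested. Of 5 fibroblast markers, the summed level was 478 to 699 CPM in knockout bleomycin, 560.3 to 3487 CPM in knockout control, 577 to 611 CPM in wild type bleomycin and 543 to 1203 CPM in wild type control. That sum was carried by the collagen gene COL1A1, which reached 3474 CPM in knockout control replicate 2 and at most 1199.7 CPM elsewhere. It had 463 to 687 CPM in knockout bleomycin, against 556 and 707 CPM in the other knockout control libraries. COL1A2 was also detected and was 3.92-fold higher with bleomycin in wild type cells (edgeR adjusted p = 0.00122), while LUM was at 0 in all libraries, DCN was at 0 in both control groups and near 0 in bleomycin, and their part in the results was not tested. Endothelial markers summed to 1.496 to 3.69 CPM.

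By FPKM, which divides by the gene length in the deposited table, tissue factor and urokinase were the most abundant of the 8 in untreated cells, and urokinase was first in bleomycin. That length was 2950 bases for PLAU, 2875 for F3, 6618 for PLAT and 11714 for TFPI, so orders and ratios between genes depend on it. In CPM, PLAT and PLAU overlapped in bleomycin, with means of 321 and 313 CPM in knockout and 315 and 326 CPM in wild type cells. The deposited FPKM (fragments per kilobase of that length, scaled to library size) of F3 averaged 111 ± 13.2 in knockout control and 88.4 ± 1.56 in wild type control (SD, n = 3 each). PLAU followed with 67.6 ± 12.7 FPKM in knockout control and 54.1 ± 4.04 FPKM in wild type control. In bleomycin PLAU led, with 105 ± 10.9 FPKM in knockout and 109.5 ± 5.96 FPKM in wild type cells. F3 stood at 69.7 ± 1.34 FPKM in knockout bleomycin and 52.2 ± 3.20 FPKM in wild type bleomycin. In wild type bleomycin F3, SERPINB2 (52.3 ± 7.21 FPKM) and PLAT (47.2 ± 2.76 FPKM) overlapped, and their order is within their spread. In knockout bleomycin PLAT (47.9 ± 1.94 FPKM) lay above SERPINB2 (30.2 ± 4.42 FPKM) without overlap.

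PLAT, TFPI, PLAUR and SERPINE2 formed a middle tier in control medium whose neighbours overlapped, with group means of 8.95 to 15.4 FPKM in knockout control and 11.1 to 13.4 FPKM in wild type control. TFPI2 was lowest or next to lowest everywhere, with group means between 4.66 and 5.33 FPKM. By FPKM, SERPINB2 changed its place most: it was last in knockout control (2.16 ± 0.738 FPKM), overlapped TFPI2 in wild type control (5.56 ± 1.20 FPKM) and stood among the upper 4 genes in both bleomycin groups. Together the 8 genes took 0.115% to 0.127% of all counts in knockout bleomycin, 0.0842% to 0.0950% in knockout control, 0.122% to 0.127% in wild type bleomycin and 0.0801% to 0.0869% in wild type control.

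**Figure D1:**
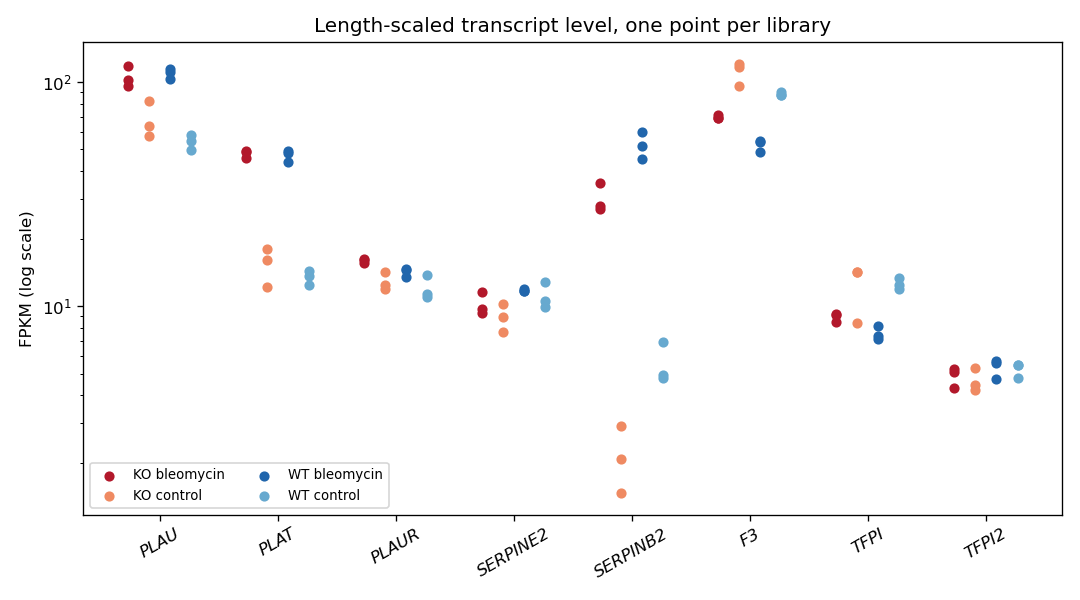
Deposited FPKM on a log axis for the 8 genes, 1 point per library, with the groups in the order knockout bleomycin, knockout control, wild type bleomycin and wild type control from left to right within each gene. F3 and PLAU lie highest in control medium, and SERPINB2 spans the widest range, with group means of 30.2, 2.16, 52.3 and 5.56 FPKM in that order.

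Bleomycin moved both plasminogen activators and SERPINB2, a serpin that inhibits them, upward, and tissue factor downward, in wild type and in knockout cells. The inhibitor TFPI was lower in both, but its call in knockout cells held in 6 of 19 alternative settings. Of the 8 genes, 4 rose and 2 fell in knockout cells, and 3 rose and 2 fell in wild type cells (edgeR's quasi-likelihood test, adjusted p at most 0.05 over all genes tested). The drug changed a large part of the transcriptome: 22.5% of all genes tested were higher and 20.7% lower in knockout cells, and 23.9% were higher and 19.6% lower in wild type cells, so that a count of this size on its own says little about these genes. Their median log2 fold change was 0.26 in knockout cells, against 0.00402 over all genes tested, and 0.17 in wild type cells, against 0.02 over all genes tested. In these bulk libraries fewer cells with a transcript and less of it per cell cannot be told apart.

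Among the activators, PLAT had 308, 329.6 and 324 CPM in knockout bleomycin against 119.6, 80.6 and 107 CPM in knockout control. In wild type cells it had 330.2, 296 and 320.3 CPM in bleomycin against 94.5, 91.1 and 82.1 CPM in control. The bleomycin libraries lay far above the control libraries in both genotypes, without overlap. The log2 fold change of PLAT was 1.65 (SE 0.13, edgeR adjusted p = 3.31e-07) in knockout cells and 1.82 (SE 0.13, adjusted p = 1.04e-07) in wild type cells, which is 3.13-fold and 3.53-fold.

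Urokinase, the main activator at cell surfaces, rose less. PLAU had 288, 349 and 304 CPM in knockout bleomycin against 171, 243 and 188 CPM in knockout control. It had 342, 308 and 329 CPM in wild type bleomycin against 147, 172 and 162 CPM in wild type control. The groups did not overlap in either genotype, and the highest control library was knockout control replicate 2, at 243 CPM. PLAU rose by a log2 fold change of 0.65 (SE 0.13, edgeR adjusted p = 0.00113) in knockout cells and 1.03 (SE 0.13, adjusted p = 2.38e-05) in wild type cells. Without knockout control replicate 2 the value in knockout cells was 0.80 (SE 0.09, adjusted p = 2.77e-07).

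The ratio of PLAU to PLAT in FPKM was lower in bleomycin, at 2.10 to 2.37 in knockout bleomycin against 3.20 to 6.75 in knockout control, and 2.30 to 2.34 in wild type bleomycin against 3.49 to 4.41 in wild type control. The ranges did not overlap in either genotype, and the highest ratio, 6.75, belonged to knockout control replicate 2.

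The urokinase receptor moved little. PLAUR had 70.4, 72.7 and 72.1 CPM in knockout bleomycin against 55.5, 63.5 and 53.2 CPM in knockout control, where the groups did not overlap. In wild type cells it had 66.3, 65.2 and 60.7 CPM in bleomycin against 61.6, 50.9 and 48.9 CPM in control, where 1 control library lay within the bleomycin range. PLAUR rose in knockout cells (log2 fold change 0.32, SE 0.10, edgeR adjusted p = 0.0227) and did not pass in wild type cells (0.25, SE 0.10, adjusted p = 0.065). The call in knockout cells was lost without knockout bleomycin replicate 2 or knockout control replicate 1 or 3, with adjusted p between 0.00100 and 0.0857 over the 12 fits that each left out 1 library. The wild type value passed without knockout control replicate 2 (0.25, SE 0.08, adjusted p = 0.0115) and without wild type control replicate 1. Knockout control replicate 2 is in neither wild type group, and without it 9743 of 17204 genes were called for bleomycin in wild type cells.

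**Figure D2:**
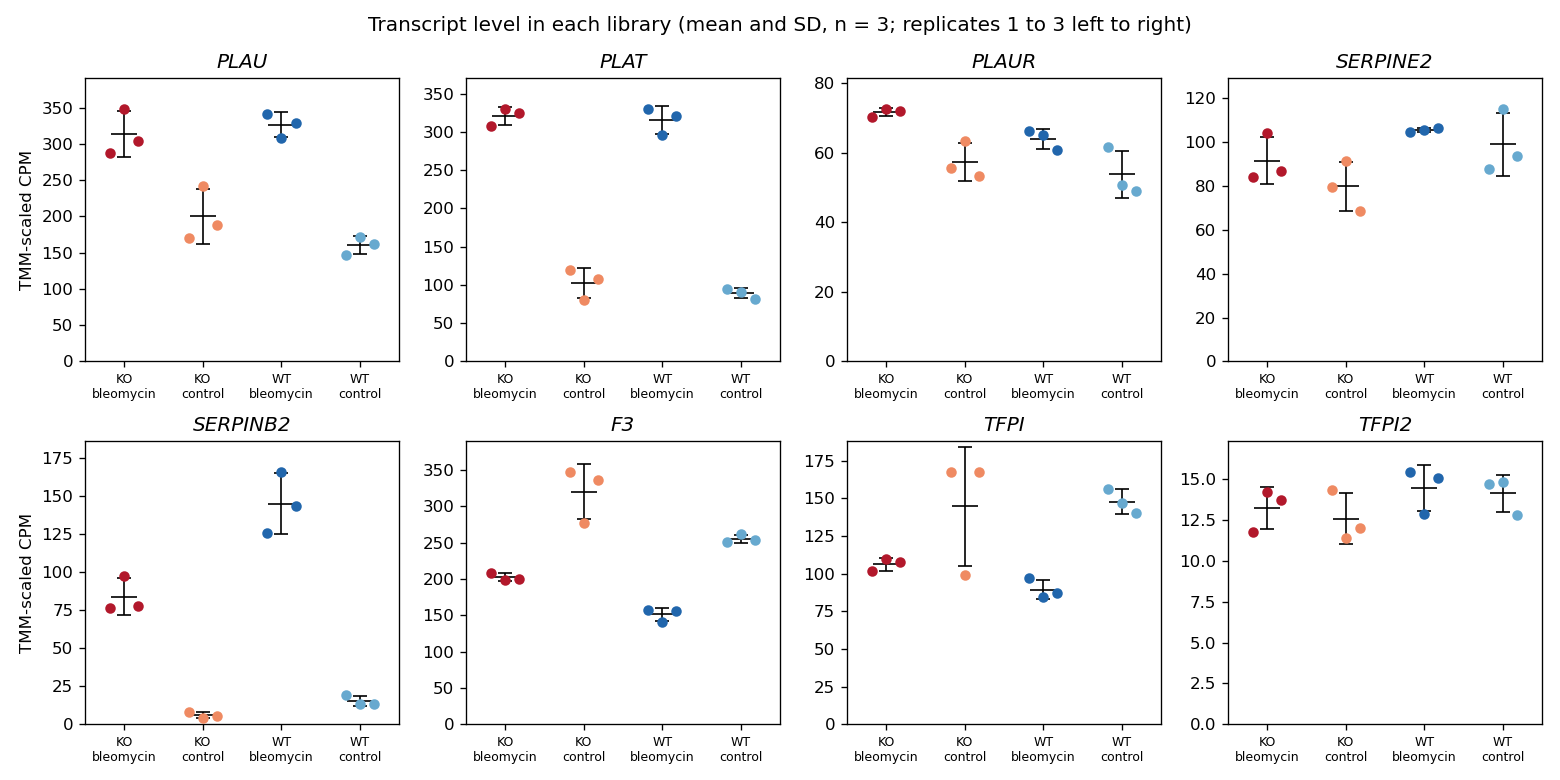
TMM-scaled CPM of each gene in each of the 12 libraries (points, replicates 1 to 3 from left to right) with the mean and SD of each group, on axes that start at 0. PLAT, PLAU and SERPINB2 are higher and F3 is lower in the bleomycin libraries of both genotypes, and TFPI in knockout control has 1 library at 98.8 CPM beside 2 near 167 CPM.

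Of the serpins, SERPINB2 changed most of the 8 genes. SERPINB2, or plasminogen activator inhibitor 2, is a mostly intracellular serpin that inhibits both activators. It had 76.2, 97.8 and 77.6 CPM in knockout bleomycin against 8.10, 4.04 and 5.74 CPM in knockout control. In wild type cells it had 126, 166 and 143 CPM in bleomycin against 19.1, 13.3 and 13.6 CPM in control. Every bleomycin library was above every control library, and the counts summed over a group were 4467, 304, 8015 and 920 in the order of these 4 groups. SERPINB2 rose 14.1-fold in knockout cells (log2 fold change 3.81, SE 0.23, edgeR adjusted p = 4.66e-08) and 9.46-fold in wild type cells (3.24, SE 0.22, adjusted p = 8.84e-08).

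PLAU exceeded SERPINB2 by a factor of 3.32 to 3.65 in FPKM in knockout bleomycin against 19.6 to 55.9 in knockout control, and by 1.73 to 2.54 in wild type bleomycin against 7.17 to 12.04 in wild type control. The ranges of the 4 groups did not overlap.

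SERPINE2, or protease nexin 1, inhibits thrombin, urokinase and plasmin in the pericellular space. It had 84.1, 104 and 86.9 CPM in knockout bleomycin against 79.6, 91.3 and 68.8 CPM in knockout control, and 105, 106 and 106 CPM in wild type bleomycin against 88.0, 115 and 93.8 CPM in wild type control. Bleomycin and control libraries overlapped in both genotypes. The log2 fold change was 0.20 (SE 0.13, edgeR adjusted p = 0.225) in knockout cells and 0.09 (SE 0.13, adjusted p = 0.600) in wild type cells. It passed in knockout cells without knockout control replicate 2 (0.30, adjusted p = 0.0317), where 8319 of 17204 genes were called.

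On the coagulation side, F3, the cell-surface starter of clotting, fell in both genotypes. It had 209, 199 and 200.2 CPM in knockout bleomycin against 347, 277 and 337 CPM in knockout control. In wild type cells it had 158, 141 and 156 CPM in bleomycin against 251, 261 and 253 CPM in control. The groups did not overlap, and the log2 fold change was -0.66 (SE 0.09, edgeR adjusted p = 9.33e-05) in knockout cells and -0.75 (SE 0.09, adjusted p = 2.64e-05) in wild type cells.

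TFPI, the Kunitz-type inhibitor of factor Xa and of the tissue factor complex, had 101, 109.6 and 108 CPM in knockout bleomycin against 167, 98.8 and 168 CPM in knockout control. It had 96.9, 84.5 and 87.1 CPM in wild type bleomycin against 156, 147 and 140.1 CPM in wild type control. The wild type groups did not overlap, whereas knockout control replicate 2 lay below all knockout bleomycin libraries. TFPI fell by 0.44 on the log2 scale in knockout cells (SE 0.16, edgeR adjusted p = 0.0379) and by 0.72 in wild type cells (SE 0.16, adjusted p = 0.00242). Without knockout control replicate 2 the value in knockout cells was -0.66 (SE 0.08, adjusted p = 3.23e-07). Of the 12 fits that left out 1 library each, 3 kept the call in knockout cells, those without knockout control replicate 2, wild type bleomycin replicate 1 or wild type control replicate 3, and adjusted p in the other 9 was at most 0.135.

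F3 exceeded TFPI in FPKM by a factor of 7.41 to 8.37 in knockout bleomycin, 8.18 to 11.4 in knockout control, 6.63 to 7.30 in wild type bleomycin and 6.53 to 7.37 in wild type control. The ratio overlapped between bleomycin and control in both genotypes.

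TFPI2, a related Kunitz inhibitor that acts on plasmin and on matrix-degrading proteases, did not pass in either genotype. It had 11.7, 14.2 and 13.7 CPM in knockout bleomycin against 14.3, 11.4 and 11.97 CPM in knockout control, and 15.4, 12.8 and 15.1 CPM in wild type bleomycin against 14.7, 14.8 and 12.8 CPM in wild type control. All 4 groups overlapped, and the log2 fold change was 0.07 (SE 0.13, edgeR adjusted p = 0.682) in knockout cells and 0.03 (SE 0.13, adjusted p = 0.857) in wild type cells. As TFPI fell and TFPI2 did not pass, their FPKM ratio was 1.77 to 1.98 in knockout bleomycin against 1.99 to 3.21 in knockout control, and 1.32 to 1.51 in wild type bleomycin against 2.27 to 2.50 in wild type control.

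**Figure D3:**
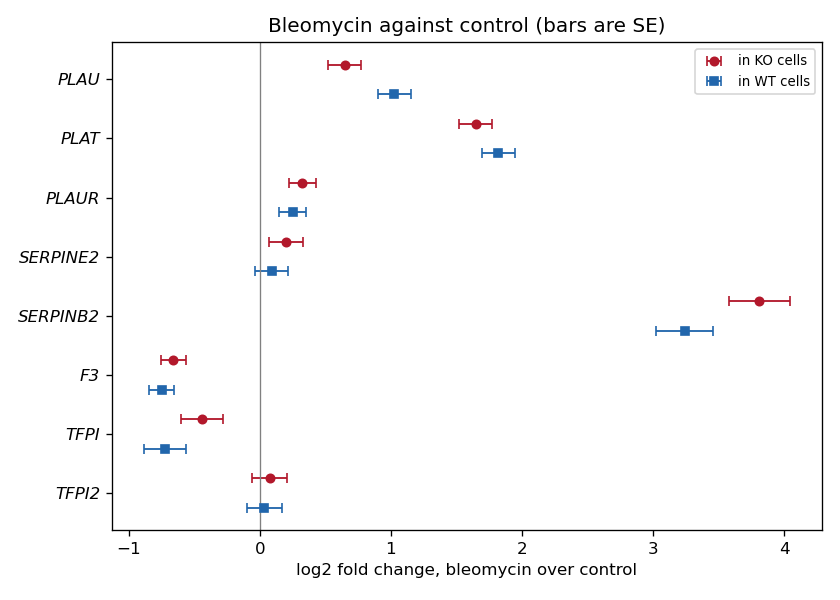
Log2 fold change of bleomycin over control for the 8 genes in knockout cells (circles) and wild type cells (squares), with SE bars from edgeR. SERPINB2 lies farthest right at 3.81 and 3.24, PLAT and PLAU are also positive, and F3 and TFPI are negative, at -0.66 and -0.44 in knockout cells and -0.75 and -0.72 in wild type cells.

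The bases just before the transcription start are shown for SERPINB2, F3 and TFPI2, because these 3 genes share a 7-letter run there although their transcripts rose, fell and did not pass under bleomycin. The windows hold the 250 bases before the RefSeq start on GRCh38.p14, at chr18:63887455-63887704 on the plus strand for SERPINB2, chr1:94541760-94542009 on the minus strand for F3 and chr7:93890754-93891003 on the minus strand for TFPI2. Capitals mark the letters TGANTCA, the core that AP-1 factors are known to bind, and TATAAA or its reverse complement TTTATA.
SERPINB2: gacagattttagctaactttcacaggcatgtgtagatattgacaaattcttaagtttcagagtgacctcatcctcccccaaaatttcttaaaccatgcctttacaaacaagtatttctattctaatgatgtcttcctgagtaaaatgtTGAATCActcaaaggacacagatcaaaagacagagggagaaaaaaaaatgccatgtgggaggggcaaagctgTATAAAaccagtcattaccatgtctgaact
F3: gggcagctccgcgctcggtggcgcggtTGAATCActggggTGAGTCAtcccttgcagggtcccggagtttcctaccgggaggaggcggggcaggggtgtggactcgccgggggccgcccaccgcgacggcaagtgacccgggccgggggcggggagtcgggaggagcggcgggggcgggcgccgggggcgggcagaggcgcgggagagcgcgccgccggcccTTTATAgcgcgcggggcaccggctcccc
TFPI2: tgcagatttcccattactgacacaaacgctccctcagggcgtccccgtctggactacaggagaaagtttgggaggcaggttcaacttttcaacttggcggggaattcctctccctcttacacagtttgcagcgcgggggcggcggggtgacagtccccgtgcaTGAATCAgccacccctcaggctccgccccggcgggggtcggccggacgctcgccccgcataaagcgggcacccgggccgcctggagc
The run TGAATCA began 102 bases before the start in SERPINB2, 223 in F3 and 87 in TFPI2, and F3 also held TGAGTCA at 210. PLAUR held TGAGTCA at 186. The search covered both strands of 9 starts of 7 of the genes. TGANTCA, which is its own reverse complement where N is any base, was in 4 of the 9 windows and in 6.57% of 35116 RefSeq windows of the same length. The narrower AP-1 core was not counted over all windows. TATAAA was found in 2 of the 9 windows, those of SERPINB2 and F3, and in 10.7% of all windows. GGGCGG, the GC box, was in 5 of the 9 windows and in 42.6% of all windows. A match describes letters and not a bound site.

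In control medium, loss of ANT1 went with less SERPINB2 and with no other called change among the 8 genes. SERPINB2 was 2.57-fold lower in knockout than in wild type control cells (log2 fold change -1.36, SE 0.23, edgeR adjusted p = 0.0436), and all 3 knockout libraries, at 4.04 to 8.10 CPM, lay below all 3 wild type libraries, at 13.3 to 19.1 CPM. Few genes passed here: 0.108% of all genes tested were higher and 0.0599% lower in knockout. The call is close to the threshold. It held in 1 of the 12 fits that left out 1 library, the one without knockout control replicate 1, with adjusted p of 0.0297 to 0.139 over the 12 and the log2 fold change always between -1.64 and -1.15. DESeq2, which called 209 of the 16702 genes here, called SERPINB2 with adjusted p = 4.69e-06, so the strength of the call depended on the method.

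F3 was higher in all 3 knockout control libraries (277 to 347 CPM) than in wild type control (251 to 261 CPM), with a log2 fold change of 0.33 (SE 0.09) that did not pass (edgeR adjusted p = 0.250). PLAU (0.32, SE 0.13), PLAT (0.20, SE 0.12) and SERPINE2 (-0.31, SE 0.13) overlapped between genotypes, as did PLAUR, TFPI and TFPI2. Unadjusted, 4 of the 8 genes had p under 0.05, as did 1661 of the 16702 genes tested. Without knockout control replicate 2, where 0.674% of genes were higher and 0.343% lower, F3 (0.42, SE 0.07, adjusted p = 0.00309) and PLAT (0.35, SE 0.08, adjusted p = 0.0441) passed as higher, and SERPINB2 (-1.15, SE 0.25, adjusted p = 0.0719) did not pass.

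In bleomycin no member of the 8 passed in edgeR between knockout and wild type cells, where 0.00599% of all genes tested were higher and 0.0419% lower. Unadjusted, 2 of the 8 had p under 0.05, as did 1103 of the 16702 genes tested. SERPINB2 had 76.2 to 97.8 CPM in knockout bleomycin and 126 to 166 CPM in wild type bleomycin, without overlap, and its log2 fold change was -0.79 (SE 0.20, edgeR adjusted p = 0.282). F3 had 199 to 209 CPM in knockout bleomycin and 141 to 158 CPM in wild type bleomycin, again without overlap, and its log2 fold change was 0.42 (SE 0.09, adjusted p = 0.232).

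DESeq2, with 0.204% of genes higher and 0.323% lower, called both SERPINB2 (adjusted p = 0.0393) and F3 (adjusted p = 0.0110). Without knockout control replicate 2, edgeR also called both, SERPINB2 at -0.79 (SE 0.16, adjusted p = 0.0426) and F3 at 0.42 (SE 0.06, adjusted p = 0.00156), against 0.924% of genes higher and 0.785% lower. That library is in neither group of this contrast, and leaving it out changed both the shared estimate of spread and the filter on low counts, which then kept 17204 genes. PLAUR and TFPI were higher and SERPINE2 lower in all knockout than in all wild type bleomycin libraries, with log2 fold changes of 0.16, 0.25 and -0.20 that did not pass. How many of all genes tested separated the genotypes in this way was not counted, in bleomycin or in control medium. Such separation on its own therefore says little about these genes, SERPINB2 and F3 included. PLAU (-0.06, SE 0.13), PLAT (0.02, SE 0.12) and TFPI2 (-0.13, SE 0.13) overlapped.

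**Figure D4:**
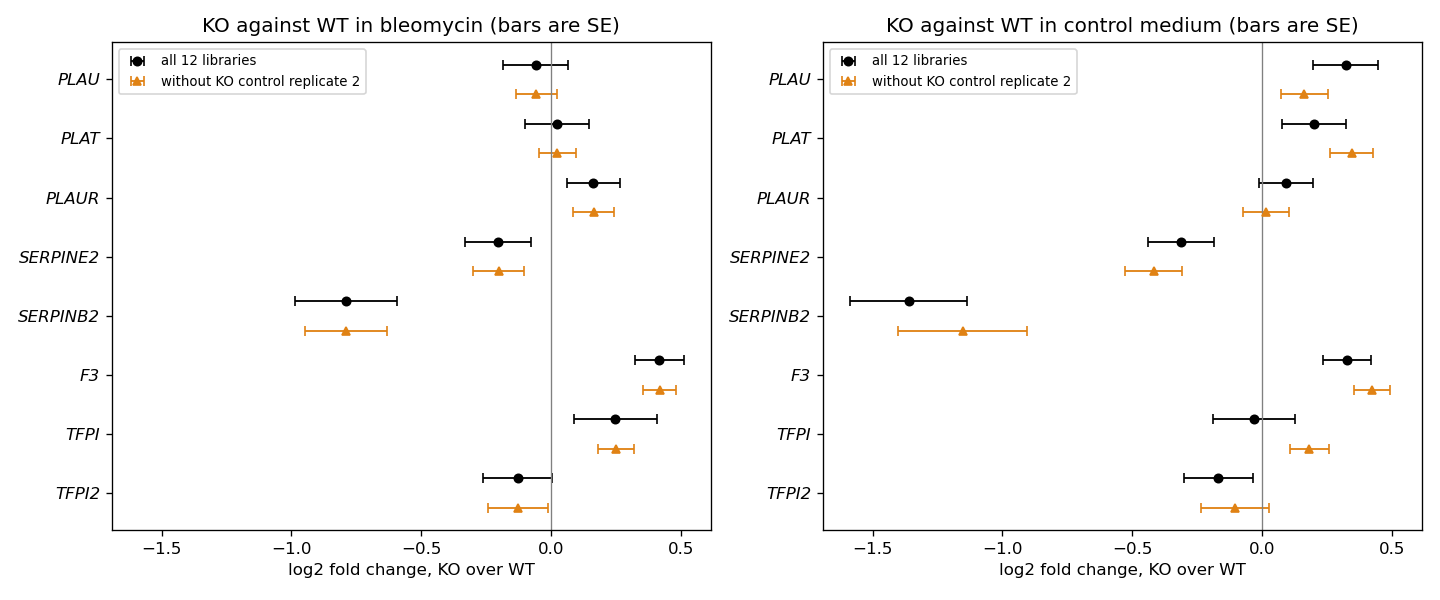
Log2 fold change of knockout over wild type cells in bleomycin (left) and in control medium (right), with SE bars, from all 12 libraries (circles) and without knockout control replicate 2 (triangles). SERPINB2 is negative and F3 positive in both panels, at -0.79 and 0.42 in bleomycin and -1.36 and 0.33 in control medium with all libraries.

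No difference in the bleomycin response between genotypes was called for any of the 8 genes, and 0% of all genes tested passed in either direction (edgeR). With all 12 libraries none of the 8 had an unadjusted p under 0.05 in edgeR, and DESeq2 called none. The largest differences in log2 fold change, knockout minus wild type, were then 0.57 (SE 0.30) for SERPINB2, -0.38 (SE 0.18) for PLAU and 0.28 (SE 0.22) for TFPI. Without knockout control replicate 2 they were 0.36 for SERPINB2, -0.22 for PLAU and 0.067 for TFPI. PLAT was then at -0.32 (edgeR unadjusted p = 0.0077, adjusted p = 0.458), and none of the 8 genes was called. The 95% intervals with all 12 libraries, from the total degrees of freedom of the fit, were -0.07 to 1.21 for SERPINB2, -0.76 to 0.0040 for PLAU and -0.21 to 0.76 for TFPI. They do not show that the genotypes responded alike.

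Other genes of the pathway were taken from a list of 54, of which 29 had enough counts to test. In bleomycin 10 rose and 5 fell in knockout cells, with a median log2 fold change of 0.31, and 10 rose and 6 fell in wild type cells, with a median of 0.15. Over all genes tested, 22.5% rose and 20.7% fell in knockout cells (median 0.00402), and 23.9% rose and 19.6% fell in wild type cells (median 0.02). The list was not tested as a set, so these counts on their own say little about it.

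Of the surface regulators of thrombin, PROCR, the protein C receptor, rose by 1.16 in knockout and 1.23 in wild type cells on the log2 scale. F2RL2, a thrombin-cleaved receptor, rose by 3.91 (knockout) and 4.33 (wild type) on that scale. Its control levels were low, with 81 counts over the 3 knockout control libraries (mean 1.56 CPM) and 62 over the 3 wild type control libraries (mean 1.02 CPM). THBD, the thrombomodulin that turns thrombin towards protein C, rose by 1.22 in knockout and 2.20 in wild type cells, and in control medium it was the 1 listed gene called between genotypes, higher in knockout (0.93, SE 0.15, edgeR adjusted p = 0.0436). F8, coagulation factor VIII, rose by 1.94 in knockout and 1.77 in wild type cells. Without knockout control replicate 2, F8 rose by 1.65 and F2RL2 by 3.41 in knockout cells. PROS1, the protein S cofactor of protein C, fell by 1.07 in knockout and by 0.96 in wild type cells.

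Among docking proteins and clearance receptors, ENO1, a glycolytic enzyme that also binds plasminogen at the surface, fell by 0.94 in knockout and 1.33 in wild type cells on the log2 scale. VLDLR, a receptor that takes up protease and serpin complexes, fell by 0.78 in knockout and 1.15 in wild type cells. SPINT2, an inhibitor of membrane serine proteases, fell by 2.09 in knockout and 1.30 in wild type cells. Knockout control replicate 2 had 122 CPM of SPINT2 beside 35.8 and 37.2 CPM in the other knockout control libraries, and without it SPINT2 fell by 1.26 in knockout cells. SERPINB6, an intracellular serpin, fell by 0.49 in knockout and 0.46 in wild type cells.

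Transcripts of the plasma substrates were near the limit of detection. PLG, plasminogen itself, had 2 counts over the 3 knockout bleomycin libraries, 0 in knockout control, 10 in wild type bleomycin and 0 in wild type control. F7, the plasma partner of tissue factor, had 3, 0, 1 and 0 counts over the groups in that order, and F10 had 15, 9, 21 and 13. A count of 0 allows up to 3 counts, which is 0.136 to 0.190 CPM per library, a limit that covers counting error only.

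**Figure D5:**
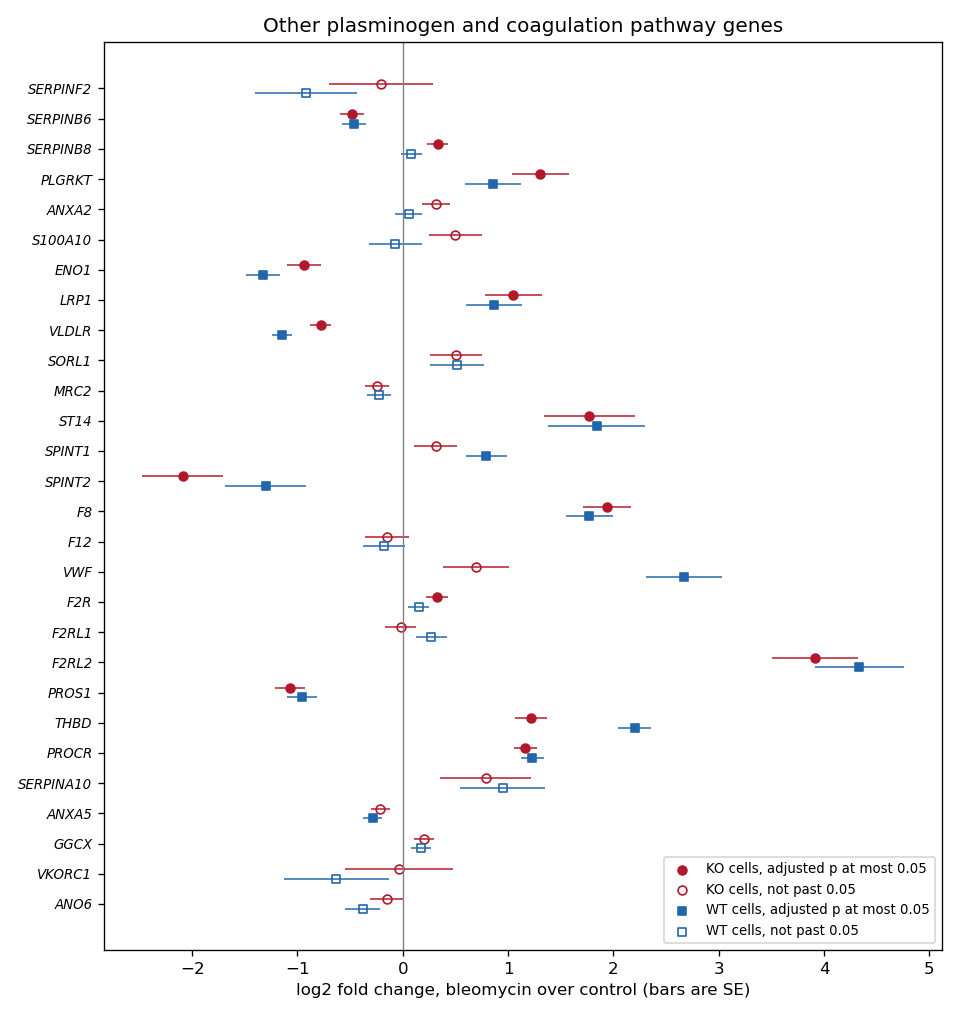
Log2 fold change of bleomycin over control for other pathway genes with enough counts, in knockout cells (circles) and wild type cells (squares), with SE bars and filled symbols for adjusted p at most 0.05. F2RL2, THBD and PROCR lie to the right and SPINT2, ENO1, PROS1 and VLDLR to the left in both genotypes.

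Across the 12 libraries the genes whose log2 CPM most resembled each of the 8 were named as a description, since all genes share the bleomycin contrast of these libraries. PLAT resembled SUGCT (r = 0.998) and the pseudogene MYH16 (r = 0.997), and 1087 genes had r over 0.95 with it. SERPINB2 resembled CXCL2 (r = 0.995) and PID1 (r = 0.993), among 406 genes over 0.95. PLAU resembled FST and NLRX1 (r = 0.988 each), among 261 genes over 0.95. F3 was nearest to SERTAD4 (r = 0.980) and COL8A1 (r = 0.976), and TFPI to TEAD4 (r = 0.982) and DCAF12 (r = 0.980), with 32 and 33 genes over 0.95. PLAUR was nearest to IMPDH1P5 (r = 0.960), its 1 gene over 0.95, and WDR70 (r = 0.948). SERPINE2 with CPA4 (r = 0.850) and MTCP1 (r = 0.849), and TFPI2 with AL136298.3 (r = 0.885) and ZNF32 (r = 0.842), had no gene over 0.95.

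The genes lie apart from each other on GRCh38: PLAU at chr10:73909177-73917497, PLAT at chr8:42175233-42207724, PLAUR at chr19:43646095-43670547, SERPINE2 at chr2:223975112-224039319, SERPINB2 at chr18:63871692-63903890, F3 at chr1:94529225-94541800, TFPI at chr2:187464230-187565760 and TFPI2 at chr7:93885396-93890991. These positions in the deposited table equal those of GENCODE 29, and all 8 are annotated as protein coding. Whether the counting used strand is not stated in the labels. C10orf55, antisense to PLAU, had 367 counts over the 12 libraries beside 54652 of PLAU, and AC007319.1, antisense to TFPI, had 77 beside 26951. SERPINB10, which overlaps SERPINB2 on the same strand, had 20 counts beside 13706.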

How the data were processed

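Poly(A) RNA of 12 Beas-2b libraries was sequenced. The authors deposited 1 table of read counts per gene and 1 of FPKM, with tools named in the submitters' processing notes as HISAT2 2.0.5 and featureCounts 1.5.0-p3. The genome build and the strand setting are not given in the sources used here, but the gene positions equal those of GENCODE 29 (GRCh38). Replicates were not pooled, and library totals were 15753944 to 21923695 counts.

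Counts were tested with edgeR 4.0.16 in R 4.3.3 (filterByExpr, TMM scaling, robust quasi-likelihood fit of 4 group means, Benjamini-Hochberg adjustment over 16702 genes, calls at adjusted p at most 0.05), for bleomycin within each genotype, knockout against wild type within each treatment, and the interaction. The code was tested on simulated data. SE is the log2 fold change over the square root of F. The authors' FPKM served for levels between genes, which depend on the gene lengths of the deposited table. Promoter sequences are those of RefSeq. Alternatives were DESeq2 1.42.0, RLE scaling, no filter, a replicate block, limma 3.58.1 on log2(FPKM + 1) and log2(FPKM + 0.1), the 2 groups compared alone, a threshold of 0.01 and leaving out each library. The 8 genes and the pathway list were chosen with earlier results of these data known. All 8 genes are named, and of the pathway list up to 4 higher and 4 lower genes of smallest adjusted p per comparison. Likeness is Pearson's r of log2 CPM with a prior count of 2, with 2 genes named for each. One gene of the pathway list is counted in its totals and is not reported here by name or value.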

Additional observations from a re-analysis of the deposited data

How the results depend on the processing

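With bleomycin, 4 to 7 of the 8 genes were called in knockout cells and 5 to 6 in wild type cells over all alternatives, and PLAU, PLAT, SERPINB2 and F3 were called in both genotypes in each of the 12 fits that left out 1 library. At the threshold of 0.05 the alternatives called 5009 to 8319 of all genes in knockout cells and 6076 to 9743 in wild type cells. The counts among the 8 genes on their own therefore say little about them. In control medium 1 of the 8 genes was called between genotypes, against 0 at a threshold of 0.01, with the replicate block, with limma on log2(FPKM + 1) or log2(FPKM + 0.1) and with the 2 groups compared alone, and 0 to 2 with 1 library left out. SERPINB2 there had an adjusted p of 0.0848 with the replicate block, 0.0896 and 0.0732 with limma, and 0.635 with the 2 groups alone. Of the pathway list 1 gene was called in control medium, against 2 with no filter, 0 at 0.01, with the block, with both limma fits and with 2 groups alone, and 0 to 3 with 1 library left out. In bleomycin 0 of the 8 genes were called between genotypes, against 2 in DESeq2, 1 with no filter, 2 with the 2 groups alone, and 0 to 2 with 1 library left out. For the interaction 0 pathway genes were called, against 1 with no filter and 0 to 1 with 1 library left out, where THBD passed without knockout control replicate 2 (-0.76, adjusted p = 0.0276). The fall of TFPI in knockout cells with bleomycin kept its call in 6 of 19 settings, and had adjusted p = 0.0507 with the block, 0.0748 and 0.0749 with limma and 0.141 with the 2 groups alone. PLAUR there had 0.0534 with no filter and 0.0506 with the 2 groups alone. The cause was not tested. Over all genes, 28 were called between genotypes in control medium, against 209 in DESeq2, 321 with no filter, 11 with the block, 14 in each limma fit, 0 with the 2 groups alone and 0 to 175 with 1 library left out. In bleomycin 8 were called, against 88 in DESeq2, 81 with no filter, 4 with the block, 28 and 4 with limma, 312 with the 2 groups alone and 2 to 294 with 1 library left out. The interaction had 0, against 4 in DESeq2, 13 with no filter and 0 to 9 with 1 library left out.

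Signs changed only for values near 0, with 1 library left out: the log2 fold change ranged over -0.035 to 0.11 for TFPI2 (bleomycin in wild type), -0.15 to 0.18 for TFPI (knockout in control), -0.14 to 0.00064 for PLAU and -0.020 to 0.058 for PLAT (knockout in bleomycin), and in the interaction -0.021 to 0.15 for PLAUR, -0.015 to 0.22 for SERPINE2, -0.0058 to 0.15 for F3 and -0.024 to 0.15 for TFPI2. Without the filter on low counts the median log2 fold change of all genes in wild type bleomycin was 0.11, against 0.02. Replicate numbers did not pair the libraries: correlations of same-numbered deviations were -0.13 to 0.11 over 18 pairs, 1 above 0.1, and 1 of 12 libraries correlated best with its own number. TFPI2 had 639 to 852 counts per group, and its SE with bleomycin, 0.13 in each genotype, was close to that of the deeper PLAU.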
